A study of Homo sapiens with 6 samples.

Results

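The translation initiation and elongation factors described here are 65 of the 30345 genes in a polysome sequencing table of OS-RC-2 cells. The members were taken by symbol: names beginning with EIF and a digit from 1 to 6, without the eIF2 kinases and without symbols that end in P and digits, plus 14 named genes that include the eEF1 and eEF2 factors, PABPC1, PABPC4, PDCD4, RACK1, NPM1 and TPT1. The pattern for P and digits removes pseudogene symbols but also the 4E-binding proteins EIF4EBP1, EIF4EBP2 and EIF4EBP3, whose values are given with the translation regulators below. OS-RC-2 is an established clear cell renal cell carcinoma (ccRCC) line that lacks functional VHL, so both groups carry that loss. In 3 libraries the cells had received 2 µM PT2399, an inhibitor of the hypoxia-inducible factor HIF2, and in 3 libraries vehicle (Veh), each for 72 h and each library from its own biological replicate. The gradient fractions beyond the monosome were pooled for sequencing, so a value is the level of an RNA that travelled with several ribosomes. Each level is scaled to its library, so higher and lower are relative to the other polysomal RNAs. A change in the total polysomal RNA of the cells, or a shift between lighter and heavier polysomes, would not show. A change in the amount of an RNA cannot be told apart from a change in its loading with ribosomes. A single line is the whole model. Of the markers of a renal epithelial tumour, PAX8 had a mean of 17472 normalized counts and KRT8 of 9363, and the mesenchymal filament gene VIM had 170524. The leukocyte marker PTPRC had a mean of 1.85, the endothelial markers PECAM1, VWF and CDH5 had 13.2, 7.43 and 0.511, and the fibroblast markers DCN and LUM had 1.48 and 1.36, while COL1A1, also on the fibroblast list, had 209 (adjusted p = 0.48).

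Translation of a capped mRNA begins when eIF4F, made of the cap-binding eIF4E, the scaffold eIF4G and the helicase eIF4A, recruits a small ribosomal subunit that carries eIF1, eIF1A, eIF3, eIF5 and the ternary complex of eIF2, GTP and initiator tRNA. eIF2B recharges eIF2 with GTP and is the step blocked by the integrated stress response, while eIF5B joins the subunits. In elongation eEF1A delivers aminoacyl-tRNA, the eEF1B subunits recharge eEF1A, eEF2 moves the ribosome along the mRNA and eIF5A, which carries the modified amino acid hypusine, helps where peptide bonds form slowly. Many of these factors are themselves encoded by TOP mRNAs, whose first base is a C followed by a run of pyrimidines and whose translation is set by mTORC1 through LARP1.

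The first bases of the RNA are shown for members on which the results turn, because a TOP start is a feature that many genes of the translation machinery share. Each window runs from 10 bases before to 15 bases from an annotated start, 5′ to 3′, from RefSeq on GRCh38.p14. Capitals mark the pyrimidine run of a start with C followed by at least 4 pyrimidines, and the windows in lower case throughout have no such run. EEF1B2 and NPM1 each have 2 listed starts, and the window with the longest such run is shown.
EEF1A1, chr6:73521018-73521042, minus strand: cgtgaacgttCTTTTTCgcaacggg
EEF2, chr19:3985449-3985473, minus strand: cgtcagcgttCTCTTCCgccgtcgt
EEF1B2, chr2:206159885-206159909, plus strand: ctcttcgggtCCTTTTTCCTCTCTT
TPT1, chr13:45341169-45341193, minus strand: ctgagtcggcCTTTTCCgcccgctc
NPM1, chr5:171387839-171387863, plus strand: agcctgcgtcCTTTCCCTggtgtga
EIF3K, chr19:38619178-38619202, plus strand: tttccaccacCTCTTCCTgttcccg
EIF4B, chr12:53006446-53006470, plus strand: tcatccgggtCTTTTgcgttctctt
RACK1, chr5:181243892-181243916, minus strand: gcttttctctCTCTCTTTCactgca
EIF4A2, chr3:186783567-186783591, plus strand: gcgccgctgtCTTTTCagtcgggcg
EIF5A2, chr3:170908623-170908647, minus strand: cccgtctcttggaactgccgcggcc
PDCD4, chr10:110871918-110871942, plus strand: gagaagggccagagactctccgagg
EIF4E, chr4:98929119-98929143, minus strand: tggagcggttgtgcgatcagatcga
EIF3C, chr16:28688548-28688572, plus strand: tcccacccccgtggcaggcagccct

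Most translation factors differed little between PT2399 and vehicle cells. Of the 65 members, 63 had an adjusted p-value, 13 were higher in PT2399 cells at an adjusted p of at most 0.05, 2 were lower and 48 were not called. The 15 called members are 23.8% of those tested, against 23.0% of all 15634 tested genes. The directions were unequal, with 20.6% of the members higher and 3.17% lower, against 11.3% higher and 11.7% lower of all tested genes. The genes higher in PT2399 cells were PDCD4, EIF5A2, NPM1, EEF1B2, EIF3K, EIF5A, EEF2, PABPC4, EIF4E, EIF4B, EIF3I, EIF1 and TPT1, and the genes lower were EIF3C and its near-identical copy EIF3CL. The statistics throughout are the log2 fold change of PT2399 over vehicle, its standard error (SE) and the Benjamini-Hochberg adjusted p-value of the deposited DESeq2 table (n = 3 per group). Values of single libraries were not analysed here, so no spread between replicates stands beside a level, and group levels were derived from the mean over the 6 libraries and the fold change.

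The changes were small in size. The median log2 fold change of the 63 tested members was 0.08, against 0.00 over all tested genes, and 42 of the 63 lay above 0 (66.7%, against 50.7% of all tested genes). A change of less than 1.2-fold in either direction was seen in 60 of the 63 (95.2%, against 68.2% of all tested genes). The exceptions were EIF5A2, PDCD4 and EIF3CL. For 44 members the whole 95% interval lay within 1.2-fold (69.8%, against 26.1% of all tested genes), a share that depends on the level.

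**Figure D1:**
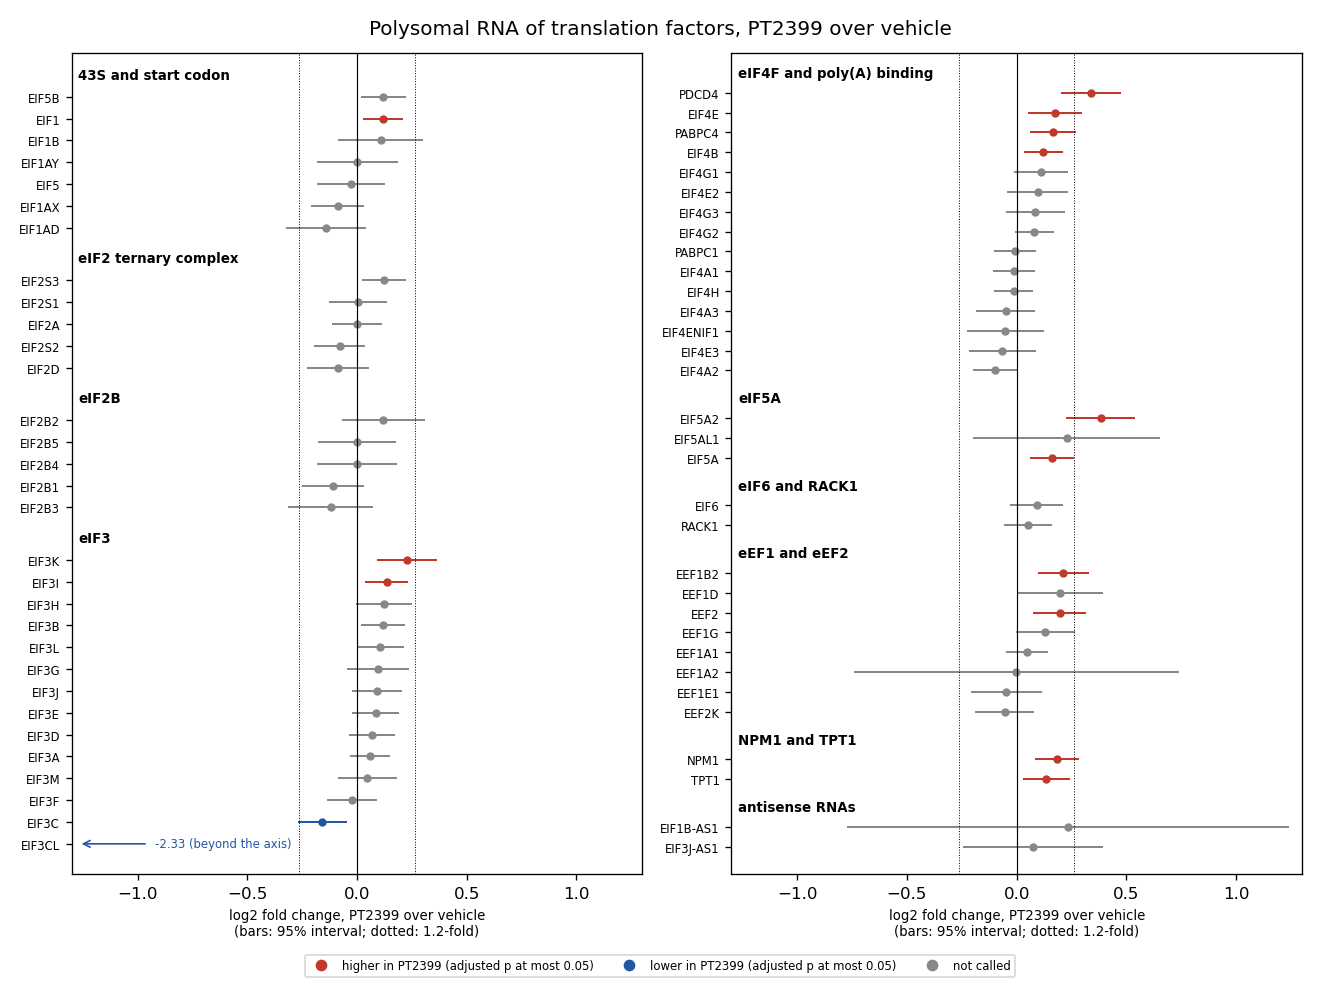
The log2 fold change of PT2399 over vehicle (x axis) is plotted for each of the 63 tested members, grouped by complex, with bars for the 95% interval and dotted lines at 1.2-fold. Only EIF5A2, PDCD4 and EIF3CL have an estimate past 1.2-fold, and EIF3CL, at -2.33, lies beyond the axis.

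Translation factor RNAs are abundant, and abundant RNAs are measured more precisely, so a share of calls depends on the level. The median member had a mean of 5942 normalized counts, against 824 for all tested genes, and the median SE of the log2 fold change was 0.061 in members and 0.107 over all tested genes. Where the mean reached 1000 normalized counts, a limit chosen after seeing the data, 14 of 55 members were called (25.5%), against 34.4% of 7218 tested genes. At that level 23.6% of the members were higher in PT2399 cells and 1.82% lower, against 17.6% and 16.7% of the tested genes. The median absolute log2 fold change there was 0.09 in members and 0.12 over tested genes. A change under 1.2-fold was seen in 96.4% of the members and 81.3% of the tested genes at that level. The whole interval lay within 1.2-fold for 80% of the members and 51.2% of the tested genes. The members' share of calls thus lay below that of genes this abundant, a difference that was not tested, and 13 of their 14 calls were on the higher side. Of the 41 uncalled members at that level, 39 had an interval that lay wholly within 1.2-fold.

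**Figure D2:**
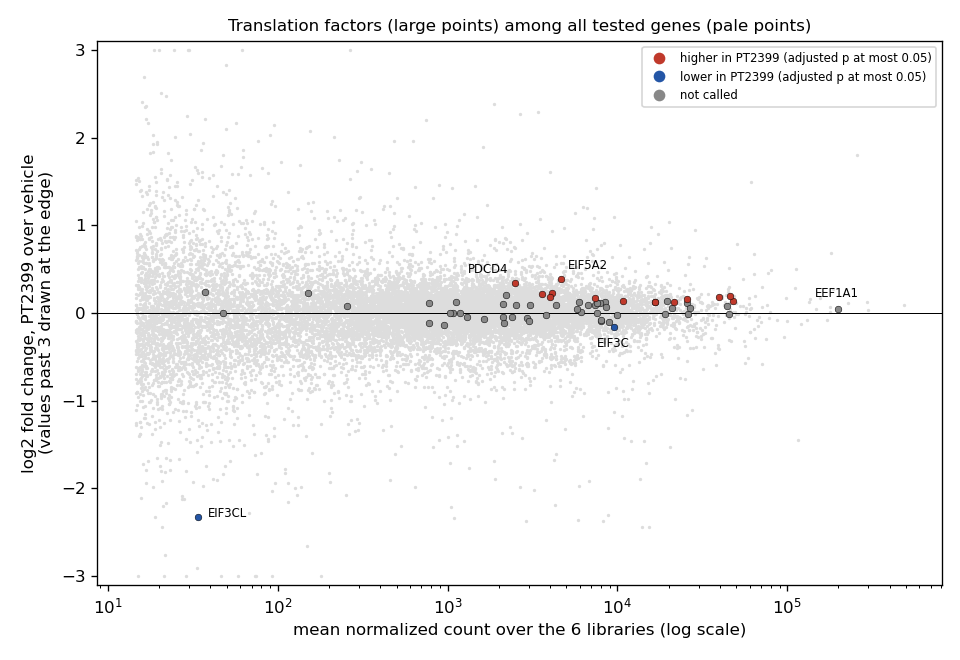
The log2 fold change of PT2399 over vehicle (y axis) is plotted against the mean normalized count over the 6 libraries (x axis, log scale) for the 63 tested members, as large points, and all 15634 tested genes, as pale points. Members lie in a narrow band around 0 at high means, apart from EIF3CL at a mean of 34.0.

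Among the eIF4F factors and their partners, the smallest adjusted p belonged to an inhibitor. PDCD4 binds eIF4A and keeps it out of eIF4F, and it is degraded after phosphorylation by S6 kinase. PDCD4 had 2781 normalized counts in PT2399 cells and 2197 in vehicle cells, a log2 fold change of 0.34 (SE 0.067, 95% interval 0.21 to 0.47, adjusted p = 6.2e-06). No other of the 65 members had a smaller adjusted p. Of the 15 tested genes of this group, 4 were higher in PT2399 cells, none was lower and 11 were not called, with a median log2 fold change of 0.08.

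EIF4E, which encodes the cap-binding protein that is usually limiting for eIF4F, had 4273 normalized counts in PT2399 cells and 3783 in vehicle cells. Its log2 fold change was 0.18 (SE 0.061, adjusted p = 0.0198). EIF4E2 encodes the cap-binding homologue 4EHP, known from other human cells to pair with HIF2 at the cap in hypoxia. With 2600 normalized counts in PT2399 cells and 2434 in vehicle cells, it was not called (log2 fold change 0.09, 95% interval -0.04 to 0.23, adjusted p = 0.36). EIF4E3, another cap-binding homologue, was not called either, at -0.07 (95% interval -0.21 to 0.08). The difference between EIF4E and its homologues was not tested, and their intervals overlap. EIF4E1B, expressed in germ cells, had a mean of 0.16 normalized counts and no adjusted p-value.

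The helicase and its helpers moved little. EIF4B, which stimulates eIF4A and is phosphorylated by S6 kinase, had 22433 normalized counts in PT2399 cells and 20620 in vehicle cells (log2 fold change 0.12, SE 0.042, adjusted p = 0.0212). Its SE was the smallest of all members. EIF4A1, the main helicase, was at 25809 in PT2399 cells and 26010 in vehicle cells, a log2 fold change of -0.01 with a 95% interval of -0.10 to 0.08. EIF4A2, its close paralog, was at -0.10 (95% interval -0.20 to -0.0023, adjusted p = 0.14) and was not called. EIF4H, a helper related to EIF4B, was at -0.01, and EIF4A3, the helicase of the exon junction complex, was at -0.05. The scaffolds EIF4G1, EIF4G2 and EIF4G3 had log2 fold changes of 0.11, 0.08 and 0.09 with adjusted p-values of 0.20, 0.18 and 0.41. EIF4ENIF1, the shuttling protein 4E-T, was at -0.05 and was not called.

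The poly(A)-binding proteins bridge the tail of the mRNA to eIF4G. PABPC4, first described as an inducible form in activated T cells, had 7793 normalized counts in PT2399 cells and 6948 in vehicle cells (log2 fold change 0.17, SE 0.052, adjusted p = 0.0093). PABPC1, the main cytoplasmic form and the most abundant uncalled gene of this group, had 44970 in PT2399 cells and 45277 in vehicle cells, a log2 fold change of -0.01 with a 95% interval of -0.10 to 0.08. The interval of PABPC4 begins at 0.06, inside that of PABPC1. Per kilobase of transcript, the mean of PABPC1 was 6.72 times that of PABPC4.

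The eIF5A genes held the largest called change among abundant members. EIF5A2, which lies at chr3:170888418-170908637 on GRCh38.p14 and encodes the paralog of eIF5A that is normally confined to few tissues, had 5288 normalized counts in PT2399 cells and 4056 in vehicle cells. The log2 fold change was 0.38 (SE 0.077, 95% interval 0.23 to 0.53, adjusted p = 1.0e-05). EIF5A, the ubiquitous gene, was also higher, with 27259 normalized counts in PT2399 cells and 24358 in vehicle cells (log2 fold change 0.16, SE 0.049, adjusted p = 0.0063). Both genes thus rose, and their intervals overlap between 0.23 and 0.26. EIF5A was the main form in level, at 20418 normalized counts per kilobase against 844 for EIF5A2. EIF5AL1, an intronless copy of EIF5A with a mean of 150 normalized counts, was not called at 0.23 (95% interval -0.19 to 0.65), and its reads cannot be told from those of EIF5A with certainty. The enzymes that make hypusine on eIF5A, DHPS and DOHH, were not called, with log2 fold changes of -0.07 (adjusted p = 0.73) and 0.42 (adjusted p = 0.18).

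Among the elongation factors EEF2 and EEF1B2 rose and the main eEF1A gene was not called, a difference that was not tested. EEF2, encoding the translocation factor, had 48862 normalized counts in PT2399 cells and 42667 in vehicle cells, a log2 fold change of 0.20 (SE 0.060, adjusted p = 0.0074). EEF1B2, the exchange factor subunit that recharges eEF1A, had 3875 in PT2399 cells and 3348 in vehicle cells, a log2 fold change of 0.21 (SE 0.057, adjusted p = 0.0017). The other exchange subunits pointed the same way without passing the test. EEF1D was at 0.20 (95% interval 0.01 to 0.39, adjusted p = 0.14), and EEF1G, the structural subunit, was at 0.13 (95% interval 0.00091 to 0.26, adjusted p = 0.15).

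EEF1A1 had the highest level of all members and the sixth highest mean of all genes in the table. It stood at 203116 normalized counts in PT2399 cells and 196501 in vehicle cells, a log2 fold change of 0.05 with a 95% interval of -0.04 to 0.14 (adjusted p = 0.54). The neural and muscle paralog EEF1A2 was near the floor of tested genes, with a mean of 47.4 normalized counts and a log2 fold change of 0.00 whose interval ran from -0.74 to 0.73. Such a range excludes little. EEF2K, the kinase that inhibits eEF2 by phosphorylation, was at -0.05 (95% interval -0.18 to 0.08, adjusted p = 0.64). EEF1E1, a component of the aminoacyl-tRNA synthetase complex, was also at -0.05 and was not called. Of the 8 genes of this group, 2 were higher and 6 were not called.

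eIF3 is the largest initiation factor, and its subunits did not all point one way. Among the 14 tested genes, EIF3K and EIF3I were higher in PT2399 cells, EIF3C and EIF3CL were lower and 10 were not called. EIF3K, a peripheral subunit, had 4463 normalized counts in PT2399 cells and 3807 in vehicle cells (log2 fold change 0.23, SE 0.067, adjusted p = 0.0045). EIF3I, a WD-repeat subunit that binds EIF3B and EIF3G, had 11236 in PT2399 cells and 10234 in vehicle cells (log2 fold change 0.13, SE 0.049, adjusted p = 0.0283), a call that was lost when p-values were adjusted over the whole table (adjusted p = 0.0544). The 10 uncalled subunits had log2 fold changes between -0.02 and 0.12, around the group's median of 0.09. EIF3A, the largest subunit and the most abundant uncalled member of eIF3, had 21452 normalized counts in PT2399 cells and 20601 in vehicle cells, a log2 fold change of 0.06 (95% interval -0.03 to 0.15). EIF3B was at 0.12 with an adjusted p of 0.0669, EIF3H and EIF3L had adjusted p-values of 0.15 and 0.13, and EIF3F was the only uncalled subunit below 0, at -0.02.

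EIF3C, the subunit through which eIF3 contacts eIF1 and eIF5, was the only abundant member that was lower in PT2399 cells. It had 8983 normalized counts in PT2399 cells and 10017 in vehicle cells, a log2 fold change of -0.16 (SE 0.055, 95% interval -0.27 to -0.05, adjusted p = 0.0231). EIF3CL had a log2 fold change of -2.33 (SE 0.646, 95% interval -3.59 to -1.06, adjusted p = 0.0025) at derived levels of 11.3 normalized counts in PT2399 cells and 56.7 in vehicle cells. The EIF3C gene lies at chr16:28688558-28735730 and its copy EIF3CL at chr16:28379581-28426418. Because they are near-identical, the assignment of reads between them is uncertain, and the mean of EIF3CL was only 0.358% of that of EIF3C. Summed, the 2 genes had 8995 normalized counts in PT2399 cells and 10074 in vehicle cells, a log2 fold change of -0.16, so EIF3C sets the value of the sum. Among the 63 tested members EIF3CL had the widest interval, and it rests on few reads.

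The factors that scan for and select the start codon held a single call. EIF1, which guards start codon choice, had 17398 normalized counts in PT2399 cells and 16012 in vehicle cells, a log2 fold change of 0.12 (SE 0.044, adjusted p = 0.0296). That call was lost when fold changes were centred on the median of expressed genes (adjusted p = 0.0525). EIF5, the GTPase-activating partner of eIF2 and the most abundant uncalled gene here, had 9809 in PT2399 cells and 9996 in vehicle cells (log2 fold change -0.03, 95% interval -0.18 to 0.12). EIF5B was at 0.12 with an adjusted p of 0.0714. EIF1AX and EIF1AY encode eIF1A, which EIF1 works with during scanning, and both were uncalled. EIF1B, at 0.11, was not called either, nor was EIF1AD, at -0.14, which was taken by its symbol and is listed with this group.

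Neither eIF2 nor its exchange factor eIF2B held a called gene. EIF2S3, the gamma subunit that binds GTP and the tRNA, lay just outside the threshold, with 17326 normalized counts in PT2399 cells and 15906 in vehicle cells and a log2 fold change of 0.12 (SE 0.049, adjusted p = 0.0542). It was called when only protein-coding genes were tested (adjusted p = 0.0473). The last gene inside the threshold was TPT1, with an adjusted p of 0.0387. The alpha subunit EIF2S1, whose phosphorylation triggers the integrated stress response, was at 0.00 (95% interval -0.12 to 0.13), and the beta subunit EIF2S2 was at -0.08 (95% interval -0.19 to 0.03). EIF2A and EIF2D, which can bring tRNA to the ribosome independently of eIF2, were at 0.00 and -0.09. All 5 of these intervals lay within 1.2-fold. EIF2S3L, an older symbol of EIF2S3B, had a mean of 7.75 normalized counts and no adjusted p-value.

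The 5 eIF2B genes had log2 fold changes between -0.12 for EIF2B3 and 0.12 for EIF2B2. EIF2B1, the alpha subunit and the most abundant of the group, had 2073 normalized counts in PT2399 cells and 2237 in vehicle cells (log2 fold change -0.11, 95% interval -0.25 to 0.03, adjusted p = 0.28). EIF2B4 and EIF2B5 were both at 0.00. Per kilobase, the eIF2B genes ranged between 261 and 899 normalized counts, below every eIF2 gene, whose range was 1465 to 4806.

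EIF6, which keeps the large ribosomal subunit free until it is mature, and RACK1, a protein of the small subunit that scaffolds signalling, were not called. RACK1 had 27391 normalized counts in PT2399 cells and 26415 in vehicle cells (log2 fold change 0.05, 95% interval -0.05 to 0.16), and EIF6 was at 0.09 (95% interval -0.02 to 0.21). NPM1, the nucleolar chaperone of ribosome assembly, had 42017 normalized counts in PT2399 cells and 36962 in vehicle cells (log2 fold change 0.18, SE 0.048, adjusted p = 0.0012). TPT1, the growth-linked protein TCTP, had 49836 in PT2399 cells and 45366 in vehicle cells (log2 fold change 0.14, SE 0.051, adjusted p = 0.0387). Both were thus higher, and the call of TPT1 was lost under centring (adjusted p = 0.0619). The RNAs EIF1B-AS1 and EIF3J-AS1, which lie beside EIF1B and EIF3J, had means of 37.2 and 256 normalized counts and were not called. On GRCh38.p14 they end at 40309698 and 44536923, before EIF1B begins at 40309707 and EIF3J at 44537147. These annotated spans do not overlap, and it is not given whether counting used the strand.

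**Figure D3:**
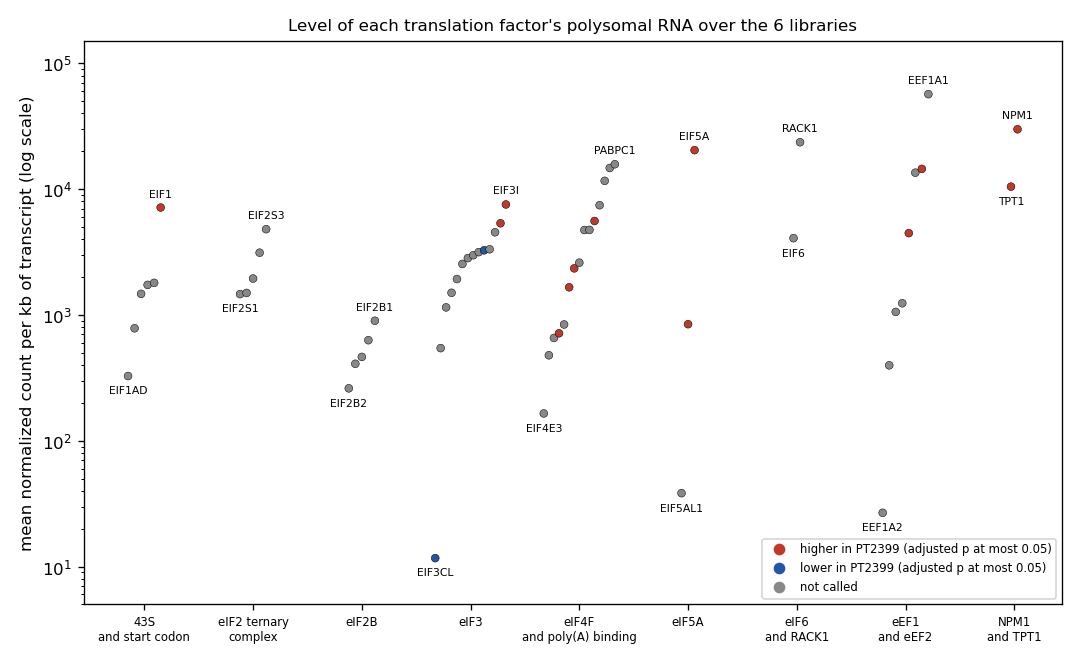
The mean normalized count over the 6 libraries per kilobase of transcript (y axis, log scale) is plotted for the tested protein-coding members except EIF1AY, grouped by complex and coloured by call. EEF1A1 is highest at 56893 and EIF3CL lowest at 11.7, and the eIF2B genes lie together between 261 and 899.

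Levels per kilobase of transcript ordered the members over several orders of magnitude. EEF1A1 led with 56893 normalized counts per kilobase, followed by NPM1 with 29917, RACK1 with 23599, EIF5A with 20418, PABPC1 with 15772 and EIF4A1 with 14738. Within paralog pairs a dominant gene was plain. EIF1 exceeded EIF1B by 9.12 times per kilobase, EIF4G1 exceeded EIF4G3 by 9.92 times and EIF4A1 exceeded EIF4A2 by 3.11 times. EIF4E was the exception, at 0.638 times the level of EIF4E2 per kilobase, whereas its mean before division by length was 1.60 times that of EIF4E2. Such orders depend on the transcript taken for each gene (2427 bases for EIF4E and 967 bases for EIF4E2). Together the 65 members made up 1.84% of the summed means of all genes.

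TOP starts were frequent among the members and occurred in both called and uncalled genes. The table of RefSeq promoter windows used here held an entry for 52 of the 65 members by symbol, and 51 of these were tested. Members without an entry in that table were EEF1A2, EEF1D, EIF2S2, EIF2S3L, EIF3A, EIF3CL, EIF3E, EIF3G, EIF3H, EIF3J-AS1, EIF3L, PABPC1 and PABPC4. A TOP start, in at least 1 listed window, was found in 15 of the 51 (29.4%), against 7.21% of the 10306 tested genes with a window and 5.14% of all 27305 genes with a window. Among the 15, NPM1, TPT1, EEF2, EEF1B2, EIF3K and EIF4B were higher in PT2399 cells, and EEF1A1, RACK1, EIF2A, EIF2D, EIF2S3, EIF3D, EIF3F, EIF3M and EIF4A2 were not called. Among the 36 members with another start, 6 were higher, 1 was lower and 29 were not called.

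Calls were divided by start after the values were seen. As a background, 14.9% of 743 tested genes with a TOP start and 13.1% of 9563 tested genes with another start were higher. Where the mean reached 1000 normalized counts, these shares were 18.3% of 480 and 17.8% of 5267 genes. The median mean was 8924 for the 15 members with a TOP start and 1827 for the 743 genes. The median log2 fold change was 0.07 for the 15 and 0.08 for the 36 members, and the ranges overlapped, with -0.10 to 0.23 for TOP starts and -0.16 to 0.38 for the others. EIF5A2 and PDCD4, the members with the largest rises, had no TOP start at the annotated base, as the windows printed above show. In the EIF5A2 window a pyrimidine run ends directly before that base, so a start a few bases earlier would change its class. The starts used in these cells were not measured, and every class here rests on the annotated base. EEF1A1 and EEF2 share the opening CT and a run of 7 pyrimidines, while their log2 fold changes were 0.05 and 0.20 with overlapping intervals.

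**Figure D4:**
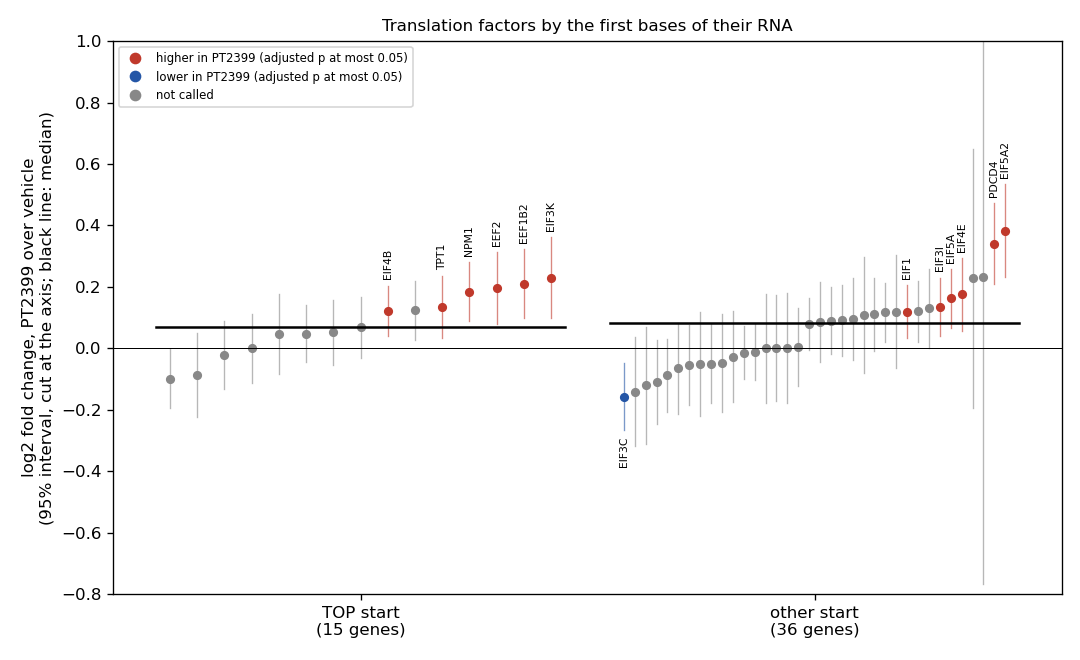
The log2 fold change of PT2399 over vehicle (y axis, bars for the 95% interval) is plotted for the 15 tested members with a TOP start and the 36 with another start. The black lines, at 0.07 and 0.08, mark the medians, and called members are named.

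The promoter windows, 250 bases before to 50 bases after the start, were also searched on both strands for ACGTG and GCGTG, the cores of sites that HIF can bind. At least 1 core was present in 42 of the 51 members (82.4%), against 69.3% of the tested genes with a window and 52.4% of all genes with a window. The 2 cores share 4 letters, and CACGTG matches on both strands. Of the 13 called members with a window, 12 held a core (92.3%, against 82.4% of all 51), a difference that was not tested. The called member without a core was EIF3C. EIF3CL, also lower, had no window, so cores cannot be compared by direction. A core present in most promoters does not mark a site, and no binding was measured here.

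Regulators of translation, a list of 40 genes with 39 rows, showed no common direction. Of the 38 tested, 3 were higher in PT2399 cells, 3 were lower and 32 were not called (15.8% called, against 23.0% of all tested genes), and the median log2 fold change was 0.02. EIF2AK2, the double-stranded RNA sensor PKR, had 13289 normalized counts in PT2399 cells and 16313 in vehicle cells, a log2 fold change of -0.30 (SE 0.051, adjusted p = 9.9e-08). EIF2AK3, the endoplasmic reticulum stress sensor PERK, had 2557 in PT2399 cells and 2134 in vehicle cells (log2 fold change 0.26, SE 0.065, adjusted p = 0.00059). These kinases phosphorylate the same site of eIF2 and were called in opposite directions. EIF2AK1 and EIF2AK4, the heme and amino acid sensors, were not called, at -0.01 (adjusted p = 0.95) and -0.12 (adjusted p = 0.0995). PPP1R15A, which brings a phosphatase to eIF2, had 6213 in PT2399 cells and 7143 in vehicle cells (log2 fold change -0.20, SE 0.079, adjusted p = 0.0463), a call that was lost when p-values were adjusted over the whole table (adjusted p = 0.0889).

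At the cap, EIF4EBP2, an inhibitor that binds eIF4E when mTORC1 is off, had 6578 normalized counts in PT2399 cells and 5733 in vehicle cells (log2 fold change 0.20, SE 0.051, adjusted p = 0.0009). EIF4EBP1, the better known inhibitor, was at -0.17 (95% interval -0.35 to 0.00, adjusted p = 0.17) and was not called, and EIF4EBP3 had a mean of 2.29 and no adjusted p-value. MKNK2, a kinase of eIF4E, had 3495 in PT2399 cells and 4130 in vehicle cells (log2 fold change -0.24, SE 0.064, adjusted p = 0.0014). EIF4E and its inhibitor EIF4EBP2 were thus both higher. ETF1, the release factor eRF1, had 11762 in PT2399 cells and 10327 in vehicle cells (log2 fold change 0.19, SE 0.059, adjusted p = 0.0088). The 4 most abundant regulators not called were LARP1 at 0.03, RPS6 at -0.11 (adjusted p = 0.0511), CNOT1 at -0.03 and DDX3X at -0.10 (adjusted p = 0.0979). MTOR, the kinase of mTORC1, was at 0.13 with an adjusted p of 0.14.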

How the data were processed

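RNA of pooled sucrose gradient fractions heavier than the monosome was made into stranded total RNA libraries and sequenced as paired ends by the authors. The submitters' notes list bcl2fastq 2.18, STAR 2.7.3a, DESeq2 1.22.1, Salmon and the hg38 build, without roles or order. Salmon's version and the use of strand in counting were not given in the sources used here. The treatment label gives the dose in mM, whereas the protocol and the series design give 2 µM. The deposited table is the authors' DESeq2 comparison of PT2399 over vehicle. Its mean normalized count over the 6 libraries is a signal scaled by the authors with size factors. The deposited log2 fold change and its standard error are unshrunken, the deposited Wald score is their quotient, and the deposited p-value comes from the authors' two-sided Wald test, with Benjamini-Hochberg adjustment in a column beside it. These comparison statistics were described as deposited, with no refit, because values of single libraries were not analysed here. The adjusted p is empty for 14711 rows with low means or no p-value, which leaves 15634 tested genes.

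Calls were made where the adjusted p was 0.05 or less, and intervals of 95% are ± 1.96 SE. Group levels are approximate. Depth is known only as relative size factors, read from genes with a lone read: 0.782 to 1.10 for PT2399 and 0.900 to 1.19 for vehicle libraries. Lengths are of 1 GENCODE transcript a gene (MANE Select where there is one). Starts, promoter windows and coordinates are from RefSeq on GRCh38.p14, and all 65 members matched by gene ID or symbol. Paralogs and near-identical copies may share reads. Named in full are the called members and the most abundant uncalled member of each complex, and of the regulators those called and the 4 most abundant uncalled. The other regulators with values (EIF2AK1, EIF2AK4, EIF4EBP1, EIF4EBP3, DHPS, DOHH, MTOR) were added after their values were seen. The members, lists and tests were chosen with earlier results of these data known. The steps that adjust and centre were tested on simulated data. A comparison of paralog proteins was not run. Tables were handled in pandas 2.3.3 and scipy 1.17.1 under Python 3.11.15, and plots drawn with matplotlib 3.10.9. The alternatives tried were stricter thresholds, adjustment over other sets of genes, and centring on the median or within bins of GC content and length.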

Additional observations from a re-analysis of the deposited data

How the results depend on the processing

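The counts of called members depended on the thresholds. At an adjusted p of at most 0.01, 8 members were higher in PT2399 cells and 1 was lower, and with an absolute change of at least 1.2-fold 2 were higher and 1 was lower. The 9 and 3 members called, of 63 tested, stand beside 16.3% and 15.5% of all tested genes called at these settings. With a minimum mean of 100 normalized counts 1 member was lower, since EIF3CL falls under that mean, and EIF2S3 became called (adjusted p = 0.0449), as it did over protein-coding genes only (adjusted p = 0.0473). Adjustment over all p-values of the table kept 12 of the 15 calls and lost EIF1 (adjusted p = 0.0568), EIF3I (adjusted p = 0.0544) and TPT1 (adjusted p = 0.0743). Centring on the median of genes with a mean of at least 100, which was 0.01, kept 13 calls and lost EIF1 and TPT1. Within bins of GC content and length all 15 calls were kept, and 41 of 63 members lay above 0. Over all genes, 28.9% were called with the minimum mean, 27.2% among protein-coding genes and 10.3% with adjustment over all p-values. Centring gave 22.7% and the bins 25.3%. No called member changed its direction under these alternatives. Among the translation regulators, 0 were higher and 1 was lower past 1.2-fold, and 5 were lower after the bins of GC content and length. With the minimum mean, with centring and over protein-coding genes only, 4 were lower, against 3 in the main setting. Adjustment over all p-values lost PPP1R15A (adjusted p = 0.0889), which left 2 lower. The cause was not tested.

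No paired analysis was possible because the table carries no values of single libraries, and for the same reason leaving out each replicate was not run. Changes of members with low means, such as EEF1A2, EIF3CL and EIF1B-AS1, are limited by depth.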
